A study of Mus musculus with 12 samples.

Results

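The two-pore and calcium-activated potassium channel genes described here were 10 genes chosen by name from the 54658 gene names in the count table, *Kcnk1*, *Kcnk2*, *Kcnk3*, *Kcnk5*, *Kcnk6*, *Kcnn1*, *Kcnn2*, *Kcnn3*, *Kcnn4* and *Kcnma1*. Their RNA was measured in the left atrium (LA) of 12 mice. The 6 iNICD mice carried αMHC-rtTA together with tetO_NICD, so that doxycycline switched on the intracellular domain of Notch (NICD), the released part of the receptor that enters the nucleus and activates transcription. The 6 control mice carried αMHC-rtTA alone, and doxycycline chow was given to both groups for 3 weeks, with no washout, starting when the mice were 2 to 3 months old. The αMHC promoter is active in cardiomyocytes, whereas the libraries were made from whole LA tissue, in which fewer cells of a type and less RNA per cell cannot be told apart. The control group had 4 females and 2 males and the iNICD group had 3 of each sex.

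Potassium channels let positive charge leave the cell and so bring the membrane back to rest. Two-pore domain (K2P) channels, encoded by *Kcnk* genes, are open at rest and carry background current, and acid, stretch, lipids and volatile anaesthetics change how far they open. Calcium-activated channels open when calcium rises inside the cell. The small conductance (SK) channels, encoded by *Kcnn1*, *Kcnn2* and *Kcnn3*, sense it through bound calmodulin and in atrial myocytes contribute to late repolarization, the intermediate conductance channel of *Kcnn4* works by the same sensor in blood and vascular cells, and the large conductance (BK) channel of *Kcnma1* responds to both voltage and calcium and is prominent in smooth muscle.

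The libraries held 21555678 to 26902478 counts in control and 21432632 to 27182038 in iNICD. Levels are given as normalized CPM, the read counts scaled to library size (CPM) after trimmed mean (TMM) correction of that size. *Notch1*, whose intracellular domain the transgene encodes, was at 118 ± 9.99 normalized CPM in control LA and 3401 ± 441 in iNICD LA (SD, n = 6 each), with no overlap between the groups. Control replicate 5, a male, stood apart from the other libraries. Its score on the first principal component was -77.4, against -20.2 to 7.98 in the other controls, and its TMM factor was 0.863, against 0.974 to 1.06 in all the others. Of 12 lists of cell type markers, 1 had genes that passed the main test described below. That was the LA cardiomyocyte list, in which 5 of 11 tested genes were lower in iNICD LA (*Tnnt2*, *Nppa*, *Myl4*, *Myl7* and *Sln*) and none was higher in that test. Its summed level was 83551 to 96050 normalized CPM in control and 55143 to 65875 in iNICD. Within this sum *Nppa* had means of 24172 in control and 4811 in iNICD. *Myh6*, the highest of the list, had means of 33574 and 32823 (edgeR adjusted p 0.871). The sum therefore does not stand for every gene of the list. The ventricular gene *Irx4* had no count in any library. The part of these cardiomyocyte genes in the channel results was not tested.

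Of the 10 channel genes, 7 exceeded 1 CPM in at least 6 libraries and were tested, and *Kcnk1*, *Kcnn4* and *Kcnma1* were not. Under the quasi-likelihood model of edgeR, with p-values adjusted by the Benjamini-Hochberg method, 0 of the 7 passed an adjusted p of 0.05, where 4.12% of the 13541 tested genes did (2.78% higher and 1.34% lower in iNICD LA). At an unadjusted p under 0.05 there were 2, *Kcnk2* and *Kcnn2*, where 17.4% of all tested genes reached that level. The median log2 fold change was 0.12 over the 7 channel genes and -0.01 over all tested genes. *Kcnn2* was the gene closest to the threshold, and it passed in DESeq2 and in edgeR's exact test. In edgeR fits within 1 sex, 0 of the 7 passed in females and 0 in males, where 2.92% and 0.0591% of tested genes did.

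**Figure D1:**
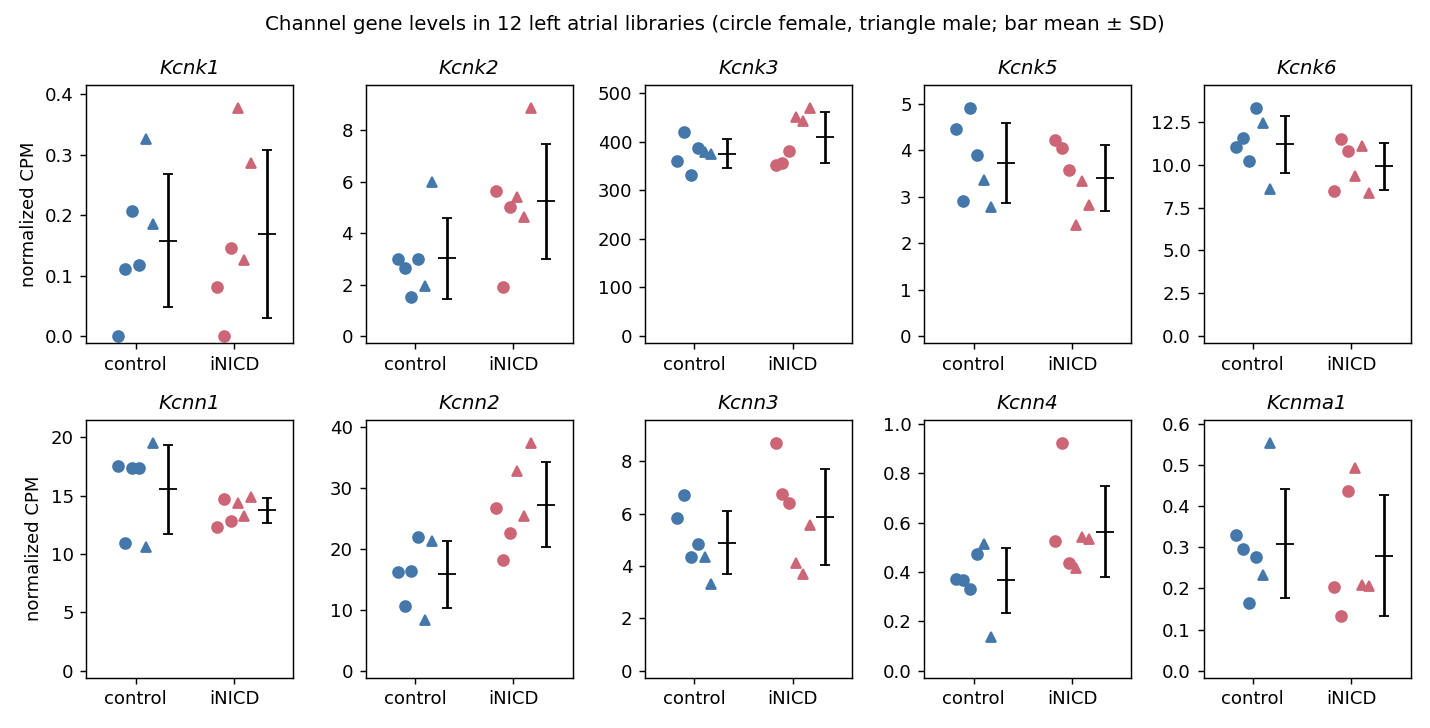
Normalized CPM of each channel gene in the 12 LA libraries, with its own axis from 0 for each gene. Circles are females, triangles are males, and the bar gives the mean ± SD of 6 libraries. For *Kcnn2*, 5 of 6 iNICD libraries lie above every control library, whereas the *Kcnk5* and *Kcnk6* groups overlap.

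Levels of different genes were compared as normalized CPM per kilobase of gene length. *Kcnk3* was far above the rest, at 94.4 in control LA, and 97.5% of all tested genes had a lower control level on this scale. The next in control LA were *Kcnn1* at 3.39, *Kcnk6* at 2.70 and *Kcnn2* at 2.16. Lower still were *Kcnk5* at 1.09, *Kcnk2* at 0.612 and *Kcnn3* at 0.469. *Kcnn4* at 0.0715, *Kcnk1* at 0.0706 and *Kcnma1* at 0.0182 lay below all of these. Only *Kcnk3* and *Kcnn1*, and *Kcnn3* and *Kcnn4*, were neighbours in this order whose ranges over the 6 control libraries did not overlap. In iNICD LA *Kcnk3* was again first at 103 per kilobase, and *Kcnn2* was second at 3.72, ahead of *Kcnn1* at 2.99 and *Kcnk6* at 2.39, although the range of *Kcnn2* overlapped those of both. *Kcnk2* at 1.06 and *Kcnk5* at 0.998, whose ranges also overlapped, were in the opposite order to that in control LA. *Kcnk3* made up 95.5 ± 0.425% of the summed level per kilobase of the 5 K2P genes in control LA and 95.7 ± 0.506% in iNICD LA (SD, n = 6 each).

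**Figure D2:**
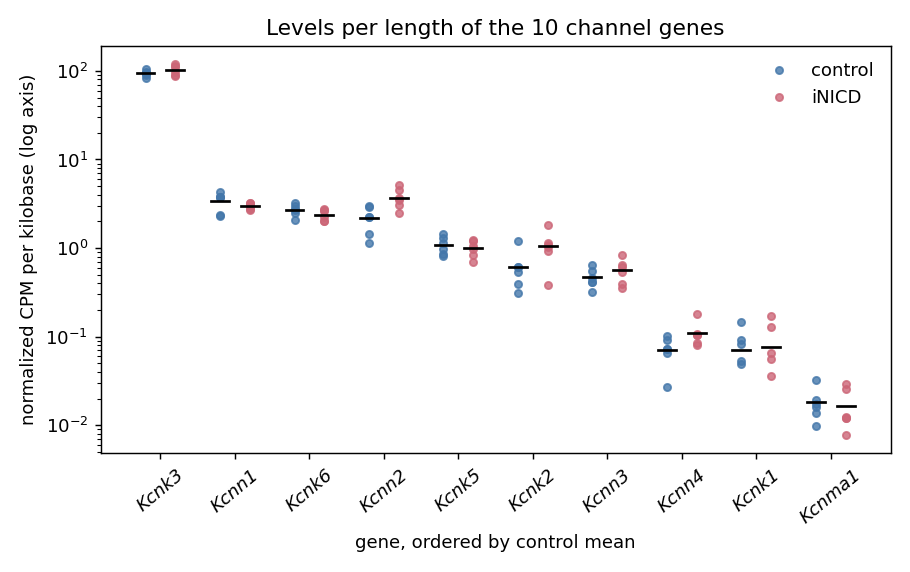
Normalized CPM per kilobase of the 10 channel genes on a log axis, ordered by the control mean. Points are libraries, black lines are means of 6 libraries, and the *Kcnk1* values at 0 (1 library in each group) cannot be drawn on this axis. *Kcnk3* stands alone at about 100. By the iNICD means *Kcnn2* lies above *Kcnn1* and *Kcnk6*, and *Kcnk2* above *Kcnk5*, and the ranges overlap in each of these pairs.

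*Kcnk3* encodes TASK-1, an acid-sensitive K2P channel that carries background current in atrial myocytes. It lies on the plus strand at chr5:30588170-30625271 in GRCm38. Control LA ranged from 331 to 420 normalized CPM with a median of 377, and iNICD LA from 351 to 470 with a median of 412. Of the 6 iNICD libraries 3 were above every control, and the other 3 lay within the control range. The means were 375 ± 29.8 and 409 ± 51.8 normalized CPM, and the log2 fold change was 0.12 with an SE of 0.09 and an edgeR adjusted p of 0.502. It was 0.080 to 0.16 with 1 library left out, lowest without iNICD replicate 6. Its 95% interval, from -0.07 to 0.32, lay below the *Kcnn2* estimate of 0.78 but overlapped the *Kcnn2* interval of 0.27 to 1.30. The 3 iNICD libraries above the controls were the 3 males, with a mean of 455 ± 13.95 normalized CPM against 377 ± 4.02 in the 2 male controls. The female means were 363 ± 16.0 in iNICD (n = 3) and 375 ± 38.3 in control (n = 4). The difference in the log2 fold change between the sexes was 0.32 for *Kcnk3*, with an unadjusted edgeR p of 0.0365 and an adjusted p of 0.916. Without control replicate 5, a fit with 1 male control left, the difference was also 0.32. With all libraries the unadjusted p was 0.0277 in DESeq2. In edgeR it was 0.0319 and 0.0464 with other size factors and 0.0737 with no filter on low counts. No tested gene passed for this difference (0% of 13541), and 3.7% had an unadjusted p under 0.05.

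The noncoding gene *Gm9899*, named after its values were seen, starts inside the first intron of *Kcnk3* and runs on the opposite strand, at chr5:30573987-30588619. Its exon and the first exon of *Kcnk3* share 229 bases. The 250 bases before its start are shown because the pair is arranged head to head there. They come from RefSeq (GRCm38.p6), are read on the minus strand at chr5:30588620-30588869, and have no capitals because none of the motifs searched below is in them.
*Gm9899*: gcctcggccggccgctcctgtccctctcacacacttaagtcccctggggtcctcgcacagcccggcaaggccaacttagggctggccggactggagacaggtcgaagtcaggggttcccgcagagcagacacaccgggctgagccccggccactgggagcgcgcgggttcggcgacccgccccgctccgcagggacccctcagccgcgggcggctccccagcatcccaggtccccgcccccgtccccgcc
*Gm9899* was at 25.0 normalized CPM in the lowest control library, 45.7 at the median and 55.4 in the highest, and at 56.8, 74.3 and 77.0 in the iNICD libraries. The groups did not overlap, as was the case for 3.83% of tested genes. It was 1.63-fold higher in iNICD LA, with a log2 fold change of 0.71, an SE of 0.17 and an edgeR adjusted p of 0.0316. The exact two-sided permutation test gave p = 0.00216, the smallest that 6 libraries against 6 allow. *Gm9899* reads were, per library, 6.60% to 14.8% of the *Kcnk3* reads in control LA and 16.0% to 21.5% in iNICD LA. The sequencing was described as stranded, but whether strand was used when the reads were counted was not given in the sources used here, so reads of the shared bases may not be separable. The *Gm9899* call was lost in 7 of 12 fits that left out 1 library, with a log2 fold change of 0.66 to 0.72 in those 7, and in both fits with a replicate block, where it was 0.75. The adjusted p-values are given in the closing section.

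*Kcnk2* encodes TREK-1, a K2P channel opened by stretch, heat and polyunsaturated lipids, and lies at chr1:189207930-189402273 on the minus strand. Control libraries held 1.53 at the lowest, 2.82 at the median and 6.00 normalized CPM at the highest, from 37 to 130 counts. The iNICD libraries held 1.89, 5.22 and 8.88 normalized CPM, from 43 to 217 counts. The groups overlapped, since control replicate 6 was higher than all iNICD libraries but 1 and iNICD replicate 2 was among the low controls. The means were 3.03 ± 1.57 and 5.25 ± 2.24, and the log2 fold change was 0.80 with an SE of 0.36 and a 95% interval of 0.02 to 1.57. The unadjusted edgeR p was 0.0454 and the adjusted p was 0.275. An exact two-sided permutation test of the mean levels gave p = 0.0736, which became 0.0238 without control replicate 6 and 0.0173 without iNICD replicate 2 and was 0.0866 to 0.147 in the other 10 omissions. In edgeR the log2 fold change was 0.58 without iNICD replicate 6 (adjusted p 0.449) and 1.11 without control replicate 6 (adjusted p 0.0875), the ends of the range over the 12 omissions.

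*Kcnk5* encodes TASK-2, an alkaline-activated K2P channel best known in kidney epithelium, and lies at chr14:20140057-20181809. Its libraries ranged from 2.77 to 4.91 normalized CPM in control (median 3.63) and from 2.38 to 4.22 in iNICD (median 3.45). The groups overlapped over most of their range, with a log2 fold change of -0.13, a 95% interval of -0.54 to 0.27 and an edgeR adjusted p of 0.755. It was -0.037 without control replicate 3, -0.048 without iNICD replicate 4 and as low as -0.20 in other omissions of 1 library. *Kcnk6* encodes TWIK-2, a K2P channel found in vascular and immune cells, and lies at chr7:29221926-29232515. Its level was 11.2 ± 1.67 normalized CPM in control LA (8.59 to 13.3, median 11.3) and 9.92 ± 1.38 in iNICD LA (8.35 to 11.5, median 10.1; SD, n = 6 each). Its log2 fold change was -0.17, with a 95% interval of -0.44 to 0.09 and an edgeR adjusted p of 0.493. *Kcnk1*, which encodes TWIK-1, a weakly conducting K2P channel whose ion selectivity shifts with acid and potassium, lies at chr8:125995170-126030685. It had 0 to 7 counts in control libraries and 0 to 10 in iNICD libraries. A count of 0 in control replicate 1 and iNICD replicate 2 allows levels of up to 0.124 and 0.132 normalized CPM, counting error only, and no difference was detectable at this depth.

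*Kcnn2* encodes SK2, a calmodulin-gated channel expressed in atrial myocytes, and lies at chr18:45268860-45686024. In the control libraries it was at 8.31 normalized CPM at the lowest, 16.3 at the median and 22.0 at the highest, from 178 to 558 counts. In the iNICD libraries it was at 18.2, 26.1 and 37.4 normalized CPM, from 414 to 914 counts. The 5 highest iNICD libraries were above every control, and iNICD replicate 2 lay inside the control range. Mean levels were 15.8 ± 5.51 and 27.2 ± 6.95 normalized CPM, 1.72-fold apart. The log2 fold change was 0.78 with an SE of 0.24 and a 95% interval of 0.27 to 1.30.

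The *Kcnn2* difference had an unadjusted edgeR quasi-likelihood p of 0.00617 and an adjusted p of 0.0955, and so was not called. The study's methods name DESeq2 for LA. For a Venn diagram of the changed genes of LA and right atrium, they name edgeR's exact test between normal and disease samples. DESeq2, in which 7.84% of genes passed, gave *Kcnn2* an adjusted p of 0.0236, and edgeR's exact test, in which 5.7% passed, gave 0.0306. With the replicate number of the titles as a block, where 3.46% passed, its edgeR adjusted p was 0.0223, with that of the descriptions, where 3.11% passed, it was 0.0872, and with sex as a covariate it was 0.128. The two-sided exact permutation test of the mean levels gave p = 0.00866 for *Kcnn2*, where 18% of tested genes had a p under 0.05 in that test, unadjusted. Control replicate 5 was the lowest control. Without it the *Kcnn2* log2 fold change was 0.65 with an edgeR adjusted p of 0.0928. Over the 12 fits that each left out 1 library, the *Kcnn2* log2 fold change was 0.65 to 0.90 and the edgeR adjusted p 0.0727 to 0.193. In females the means were 16.3 in control and 22.5 in iNICD, and in males 14.8 and 31.9, and the difference of the log2 fold changes between the sexes, 0.64, had an unadjusted edgeR p of 0.213 and an adjusted p of 0.916. That difference was 0.11 without control replicate 5, which leaves 1 male control whose spread is assumed to be that of the other groups.

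*Kcnn1* encodes SK1, which in mouse heart is found mainly in atria together with SK2, and lies at chr8:70842049-70863258. Control libraries ranged from 10.6 to 19.5 normalized CPM with a median of 17.4, and iNICD libraries from 12.3 to 14.9 with a median of 13.8. All 6 iNICD libraries lay inside the control range. The 2 low controls, replicates 2 and 5, were below every iNICD library. The log2 fold change was -0.18, with a 95% interval of -0.50 to 0.14 and an edgeR adjusted p of 0.572. Leaving out 1 library gave -0.10 (without control replicate 6) to -0.27 (without control replicate 2 or 5). *Kcnn3* encodes SK3, found in atrial, endothelial and neuronal cells, and lies at chr3:89520164-89675132. Its control range was 3.32 to 6.70 normalized CPM (median 4.60) and its iNICD range 3.71 to 8.72 (median 5.99), with 2 iNICD libraries above every control. Its log2 fold change was 0.26, with a 95% interval of -0.22 to 0.74 and an edgeR adjusted p of 0.582. Leaving out 1 library gave 0.11 (without iNICD replicate 1) to 0.37 (without control replicate 2).

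The 3 SK genes were also set against each other within each library, a description chosen after their values were seen and given without a test. As a share of their summed level per kilobase, *Kcnn1* was 56.5 ± 3.11% in control and 41.6 ± 5.21% in iNICD, and *Kcnn2* was 35.1 ± 4.37% and 50.5 ± 6.58% (SD, n = 6 each). *Kcnn3* was 8.44% and 7.91% in the mean. The *Kcnn2* to *Kcnn1* ratio per kilobase in control replicates 1 to 6 was 0.582, 0.610, 0.591, 0.795, 0.491 and 0.681. In iNICD replicates 1 to 6 it was 1.36, 0.774, 1.10, 1.43, 1.20 and 1.57. Control replicate 5, low in both genes, had a ratio below those of the other controls, and iNICD replicate 2, at 0.774, was the only iNICD library under the highest control ratio of 0.795.

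**Figure D3:**
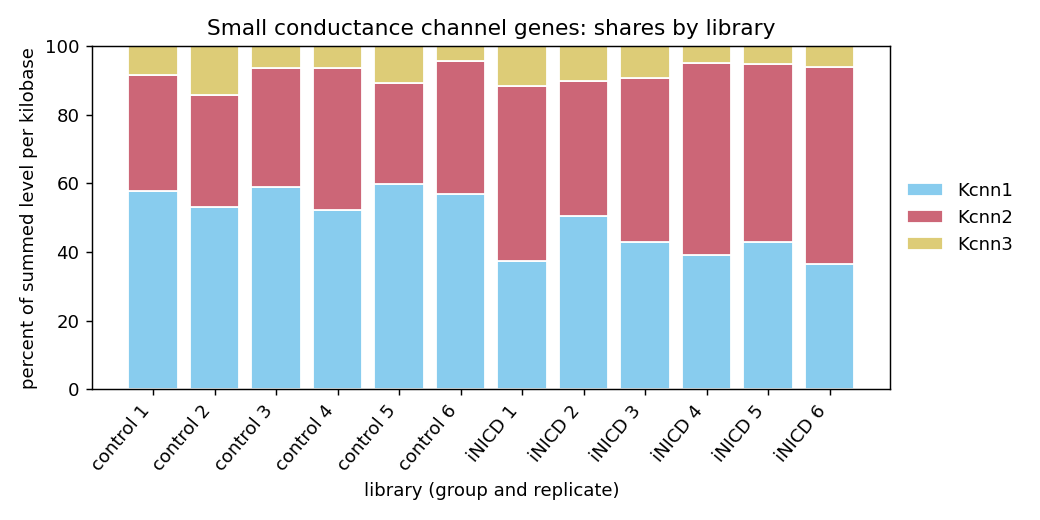
Shares of *Kcnn1*, *Kcnn2* and *Kcnn3* in their summed normalized CPM per kilobase, 1 bar for each LA library from 0 to 100 percent. *Kcnn2* takes between 29.4% and 41.4% in control LA, and between 39.2% and 57.5% in iNICD LA.

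*Kcnn4* encodes the intermediate conductance channel and lies at chr7:24370263-24386690. It was under the filter, with 3 to 12 counts in control libraries and 11 to 21 in iNICD libraries. Mean levels were 0.366 ± 0.131 and 0.563 ± 0.185 normalized CPM, and 4 iNICD libraries were above every control. Fitted with no filter, in which 1.68% of genes passed, its log2 fold change was 0.60 with an SE of 0.33 and an edgeR adjusted p of 0.514. The exact two-sided permutation test gave an unadjusted p of 0.0303, which was 0.0584 to 0.0736 when control replicate 1, 2, 3 or 6 or iNICD replicate 2 was left out. The summed level of 5 erythroid markers, of red blood cells that also carry this channel, was 59.3 to 247 normalized CPM in control and 27.1 to 138 in iNICD, and the summed level of the immune markers was 177 to 221 and 171 to 259. None of these markers passed the main test. The 5 erythroid markers had log2 fold changes of -1.33 to -0.98, of which *Hbb-bt* (edgeR adjusted p 0.0664) passed in DESeq2 at 0.00616 and in edgeR without control replicate 5 at 0.0479, and *Alas2* (edgeR adjusted p 0.146) passed in DESeq2 at 0.0413. The part of these markers in the *Kcnn4* values was not tested.

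*Kcnma1* encodes the pore subunit of the BK channel and lies at chr14:23289431-24014491. It had 4 to 12 counts in control libraries and 3 to 13 in iNICD libraries, means of 0.309 and 0.279 normalized CPM, and in the fit with no filter a log2 fold change of -0.12 with an edgeR adjusted p of 0.918. *Kcnmb1*, the smooth muscle accessory subunit of this channel, was at 1.35 ± 0.769 in control and 0.826 ± 0.195 normalized CPM in iNICD (SD, n = 6 each) and was also under the filter. Of the 6 vascular smooth muscle markers, all tested, none passed, and their summed level was 396 to 571 normalized CPM in control and 420 to 616 in iNICD.

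**Figure D4:**
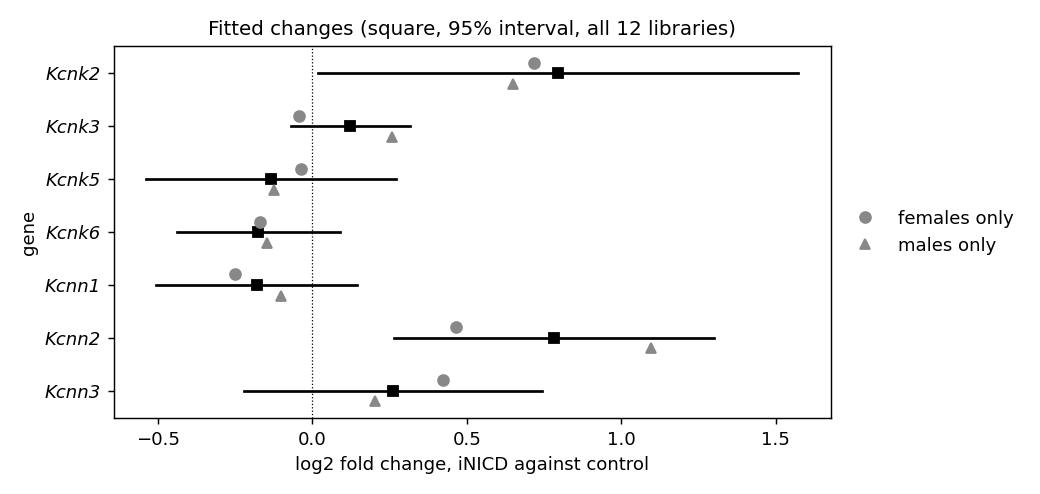
Log2 fold change of iNICD against control LA for the 7 tested channel genes from edgeR. Squares with 95% intervals are from all 12 libraries, and grey circles and triangles are fits within females and within males. The intervals of *Kcnk2* and *Kcnn2* lie above 0, though neither gene passed after adjustment, and the *Kcnk3* value in females is -0.04.

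The sexes were also compared with genotype in the model, a test added after the data were seen. None of the 7 genes passed, where 0.288% of tested genes did. *Kcnn3* had a male minus female log2 difference of -0.61 with an SE of 0.16, an unadjusted edgeR p of 0.00275 and an adjusted p of 0.140. *Kcnk5* had a difference of -0.44 (unadjusted edgeR p 0.0158, adjusted 0.251) and *Kcnk3* of 0.18 (unadjusted 0.0450, adjusted 0.345). These 3 of 7 had an unadjusted p under 0.05, as did 13.9% of tested genes. Without control replicate 5 the count was 5 of 7, where 15.6% of tested genes had such a p, and 0 of 7 passed after adjustment, where 0.325% did. The *Kcnn3* difference was then -0.71 with an edgeR adjusted p of 0.110, that of *Kcnk2* 0.81 against 0.61 with all libraries, and that of *Kcnn2* 0.46 against 0.21.

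Other genes of these channel systems were taken from fixed lists of 48 genes, of which 31 were tested and 0 passed, where 4.12% of all tested genes did, so that a count of 0 is near the background for lists of this size. Of 9 other K2P genes, 1 was tested, *Kcnk13*, which encodes a halothane-inhibited channel, at 1.07 and 1.04 normalized CPM in control and iNICD (edgeR adjusted p 0.971). The K2P genes *Kcnk4* (TRAAK) and *Kcnk10* (TREK-2), relatives of *Kcnk2*, were at or below 0.0709 normalized CPM in the mean of either group. *Kcnk9*, *Kcnk12*, *Kcnk16* and *Kcnk18* had no count in any library. Of 11 relatives and accessory subunits of the BK channel, 3 were tested and 0 passed.

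Of 15 SK and intermediate channel partners, all were tested and 0 passed, with a median log2 fold change of -0.12. *Calm3*, one of the calmodulin genes, was at 186 and 231 normalized CPM (log2 fold change 0.31, edgeR adjusted p 0.172). Without control replicate 5 it was the only gene of the lists that passed, with a log2 fold change of 0.40 and an edgeR adjusted p of 0.0276, where 5.9% of tested genes passed. *Cacna1d*, which encodes an L-type calcium channel pore that couples to SK2 in atrial myocytes, was at 10.5 and 7.01 normalized CPM (log2 fold change -0.58, edgeR adjusted p 0.349). Of 13 K2P partners, 12 were tested and 0 passed, with a median of -0.10. *Bves* and *Popdc2*, of the cyclic AMP-binding Popeye family that interacts with TREK-1, were at 105 and 92.6 (edgeR adjusted p 0.317) and at 670 and 622 normalized CPM (adjusted p 0.835).

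The promoters of the channel genes were searched on both strands for 3 sets of letters. GTGGGAA is the core bound by RBPJ, the DNA-binding partner of NICD. The Hes and Hey repressors, which are Notch targets, bind CACGTG, the related site CACGCG and the further variant CACGAG. T-box factors bind GGTGTGA. RefSeq windows of 300 bases (250 before to 50 after a start, GRCm38.p6) were matched for 7 of the 10 genes, 11 windows in all, with none for *Kcnk3*, *Kcnk6* and *Kcnn2*. GTGGGAA was in 0 of the 11 windows, where 6.38% of 32851 promoters held it, and GGTGTGA was in 0 of 11, where 3.98% did. The Hes and Hey letters were in 2 of 11, where 20.3% of promoters held them. Both were CACGTG, in *Kcnk5* at position 27 after the start and in *Kcnn4* at 133 bases before it. The *Kcnn4* match is shown with its flanks, since it was the only match that lay before a start. The window is chr7:24370103-24370162 on the plus strand, with the matched letters in capitals.
*Kcnn4*: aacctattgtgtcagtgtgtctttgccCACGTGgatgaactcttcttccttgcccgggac
A match of these letters is a description of the window and not a measurement of binding.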

How the data were processed

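Total RNA of 12 mouse LA (6 control, 6 iNICD) was depleted of ribosomal RNA and sequenced with 50-base single-end reads. The authors deposited raw counts per gene for each library, with a gene length in bases. The study's methods name TopHat2 2.1.1 with HTSeq 0.6.0 for LA, and a later STAR version with Subread for the Venn diagram of LA and right atrium. The submitters' processing notes name STAR 2.4.2a and featureCounts. Which of them made the table, and whether strand was used in counting, is not given in the sources used here. Positions are from GENCODE M21 (GRCm38), whose exon lengths equal the deposited lengths for every channel gene except *Kcnn2* (7321 deposited, 7468 in M21), so that the per-kilobase levels of *Kcnn2* rest on the deposited length.

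Genes above 1 CPM in at least 6 libraries were kept. The main test was edgeR 4.0.16 (R 4.3.3), quasi-likelihood with TMM factors and no block, two-sided, with Benjamini-Hochberg adjustment over the 13541 genes kept and a threshold of 0.05. Normalized CPM used the full library total times the TMM factor. Exact permutation tests of the difference in mean normalized CPM used all 924 splits and were not adjusted. Alternatives were DESeq2 1.42.0, edgeR's exact test, other size factors and filters, sex, replicate blocks and each library left out. Added after the data were seen were the sex coefficient, the SK ratio, *Gm9899*, and the interaction and sex fits without control replicate 5. The scripts were tested on simulated data.

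Named genes were the 10 channel genes, listed partners that passed, and *Kcnmb1*, *Kcnk4*, *Kcnk10*, *Bves* and *Popdc2*; *Gm9899*, *Kcnk13*, *Calm3*, *Cacna1d*, the cell type markers and the channel genes at 0 counts were named after their values were seen. The channel genes and lists were chosen with earlier results of these data known. No 2 libraries of a group agreed within sampling noise (chi-square per gene of at least 16.7, where 1 is expected from counting alone). The labels give a separate sample per library, and p-values measure the spread between these samples. Intervals on low counts cover counting error only. Protein sequences were not used here.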

Additional observations from a re-analysis of the deposited data

Results flagged for a closer look

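In 2 of 20 groups of 6 libraries tested, 1 library was far from the others by Dixon's criterion, where chance gives about 1. They were *Kcnk2* in control replicate 6, at 6.00 normalized CPM where the other controls were at 1.53 to 3.02, and *Kcnn4* in iNICD replicate 2, at 0.924 normalized CPM where the other iNICD libraries were at 0.416 to 0.542.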

How the results depend on the processing

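Of all tested genes, 558 were called in the main test, 1059 in DESeq2, 315 with at least 1.5-fold added, 8 in males alone, and 374 to 799 with 1 library left out. Called channel genes numbered 0 in the main test and 1, *Kcnn2*, in DESeq2, in edgeR's exact test and with the replicate block by title number (log2 fold change 0.82, edgeR adjusted p 0.0223; 3.46% of genes called). With the block by description number *Kcnn2* had 0.81 and an edgeR adjusted p of 0.0872. Deviations of libraries with the same number correlated from -0.153 to 0.372, so the numbers were not taken as pairs. Family and partner genes called numbered 0 to 1 with 1 library left out, the 1 being *Calm3* without control replicate 5. Unadjusted permutation p was under 0.05 for 2 of 10 channel genes, *Kcnn2* and *Kcnn4*. Of all tested genes 18% had such a p, a share that leaves out genes under the filter, such as *Kcnn4*. With 1 library left out the count was 1 to 2. It was 1 (*Kcnn2*) without control replicate 1, 2 or 3. Without control replicate 6 or iNICD replicate 2, *Kcnk2* took the place of *Kcnn4*. *Kcnn2* was under 0.05 in all 12 of these omissions and *Kcnn4* in 7. The *Kcnk3* log2 fold change was -0.044, against 0.12 in both sexes, in females alone (edgeR adjusted p 0.844). The sex by genotype interaction called 0 channel genes in every setting run. The *Gm9899* adjusted p in edgeR was 0.0101 to 0.0669 with 1 library left out, past the threshold in 5 of 12 fits and lost without control replicate 2 or 3 or iNICD replicate 2, 3, 4, 5 or 6; it was 0.0659 and 0.0598 with the title and description blocks, 0.0966 in females and 0.775 in males. The cause of these changes was not tested. Low counts limit *Kcnk1*, *Kcnn4* and *Kcnma1*.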
